A study of Caenorhabditis elegans with 8 samples.

Results

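The 10 genes described here encode the histone deacetylases hda-1 to hda-6 and the sirtuins sir-2.1 to sir-2.4 of Caenorhabditis elegans. They were chosen by their gene symbols, and all 10 were found among the 17076 genes of the deposited table. Libraries came from intact hermaphrodites of N2, the wild type and standard laboratory strain, grown at 20 °C on bacterial lawns from synchronized first-stage larvae. The older group, 5P0, was labelled adult day 5 and had grown for 180 h (4 libraries), and the younger, 1P0, was labelled adult day 1 and had grown for 60 h (4 libraries). The culture times lie further apart than the stated ages. Each of the 4 labelled batches holds 1 library of each age. Poly(A)-selected RNA was sequenced, and the title of the series ties age to offspring survival by an epigenetic route. No label states whether each library had a culture of its own, so the p-values reflect only the variation among these libraries, which may be technical.

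Histone deacetylases remove acetyl groups from lysines of histones and other proteins, and in chromatin they are mostly tied to lower transcription. The class I enzymes work as the catalytic part of complexes such as NuRD, Sin3 and CoREST, while class II enzymes include forms that shuttle between nucleus and cytoplasm and forms that act on tubulin. Sirtuins are a separate enzyme family that uses NAD+ as a co-substrate, with nuclear and mitochondrial members. In the worm both families have been studied for their roles in development, in the germline and in ageing.

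Levels below are the deposited values, which are counts of reads scaled by 1 factor for each library and are not corrected for gene length. Differences are given as day 5 minus day 1, after adding 1 to each value and taking log2, and their standard error (SE) comes from a limma fit across all genes. A gene was called where the limma p, adjusted by Benjamini-Hochberg over all 16739 genes tested, was under 0.05. All 10 genes had a mean value of at least 1 and entered the test. Of them 8 were called, 7 higher at day 5 and 1 lower, and 2 were not. Over all genes tested 55.6% were called, 28.8% higher and 26.8% lower. The median log2 difference was 1.47 over the 10 genes and -0.065 over all genes. In 9 of the 10 genes, 8 higher and 1 lower, no day 5 library fell within the day 1 range or the reverse, which held for 52.8% of all genes tested (27.6% higher and 25.2% lower). The same 8 genes were called by edgeR, which called 55.6% of all genes, by DESeq2, which called 58%, and by limma with the batch as a block, which called 52.6%.

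**Figure D1:**
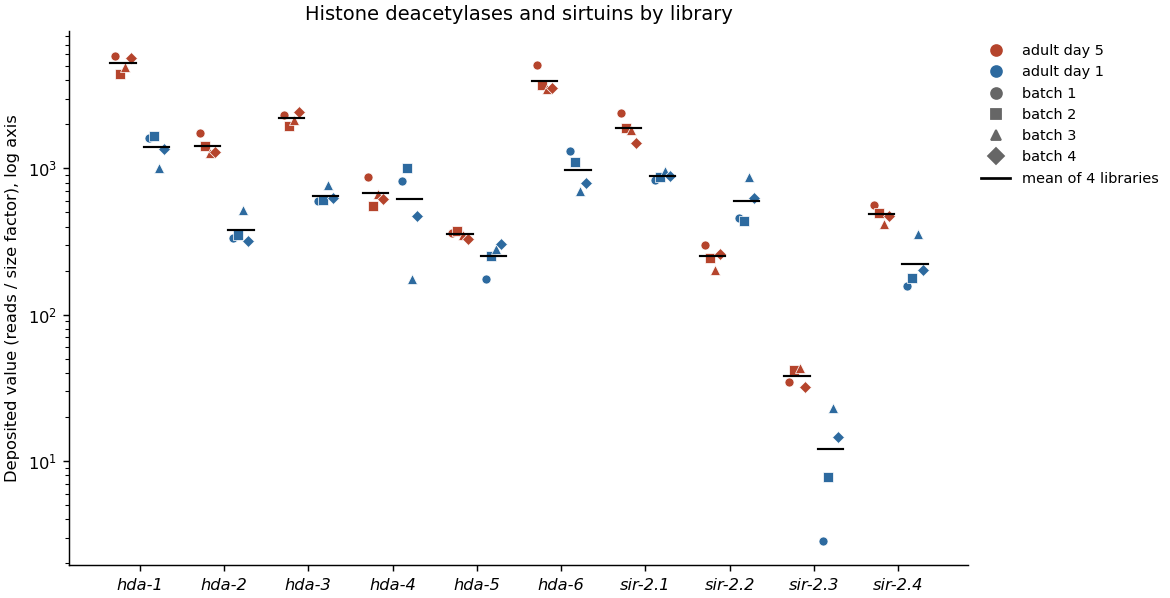
Deposited value of each gene in each library (log axis), with day 5 libraries on the left and day 1 libraries on the right of each gene, symbols by batch and a line at the mean of the 4 libraries. Day 5 libraries lie above all day 1 libraries in 8 genes and below them in sir-2.2, and the ages overlap in hda-4.

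The 3 class I genes were higher at day 5 by similar factors. hda-1 (WBGene00001834; WBcel235 chromosome V, 14525389 to 14527411, plus strand) encodes the main class I enzyme, the catalytic subunit of the worm NuRD complex, with roles in embryonic and vulval development. It stood at 5905, 4438, 4895 and 5667 at day 5 (batches 1 to 4, in this order throughout), against 1617, 1657, 998 and 1349 at day 1. The lowest day 5 library was well above the highest day 1 library. Its mean was 5226 ± 680 at day 5 and 1405 ± 304 at day 1 (SD, n = 4 each), which is 1.91 on the log2 scale (SE 0.20, limma adjusted p = 4.8e-05).

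hda-2 (WBGene00001835; II, 8020780 to 8022561, minus strand) is a class I paralog of hda-1. Its values were 1740, 1411, 1267 and 1300 at day 5, against 334, 350, 518 and 320 at day 1. All day 5 libraries were higher than all day 1 libraries, and the day 1 library of batch 3 stood above the other day 1 libraries. The log2 difference was 1.92 (SE 0.21, limma adjusted p = 5.7e-05). hda-2 shares 6 exonic bases with zyg-11 on the other strand.

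hda-3 (WBGene00001836; I, 11912793 to 11917712, minus strand), the third class I gene, had 2317, 1942, 2131 and 2433 at day 5, against 599.6, 611, 768 and 631 at day 1. These were the closest replicates among the class I genes at either age. The log2 difference was 1.76 (SE 0.16, limma adjusted p = 2.3e-05). hda-3 lies close to mag-1 on one side and 93 bases from fdps-1 on the other, all on the same strand. Genes next to the members were added after the values had been seen. mag-1 averaged 2875 ± 341 at day 5 and 2335 ± 186 at day 1 and was not called (limma adjusted p = 0.136), while fdps-1, a farnesyl diphosphate synthase gene, rose by 0.79 (SE 0.23, limma adjusted p = 0.0161). Not all neighbours are described. swsn-7, 70 bases from hda-2, and C06A5.3, 151 bases from sir-2.4, rose by 2.82 and 2.18 (limma adjusted p = 0.00117 and 1.3e-05). Beside hda-1, ril-1 and kcnl-4 were called lower, at -0.79 and -0.91 (limma adjusted p = 0.00194 and 0.0307).

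No difference with age was detectable in the balance between class I genes. A ratio of genes within a library, taken after adding 1 to each value, hardly depends on the scaling, and 4 such ratios were compared by an exact two-sided permutation test of 4 against 4 libraries, in which the smallest possible p is 0.0286. The log2 ratio of hda-3 to hda-1 was -1.24 ± 0.074 at day 5 and -1.08 ± 0.50 at day 1 (exact p = 0.714, adjusted p = 0.952 over the 4 ratios). The log2 ratio of hda-2 to hda-1 was -1.87 ± 0.21 at day 5 and -1.88 ± 0.63 at day 1 (exact p = 1, adjusted p = 1). At day 1 both ratios were highest in batch 3, at -0.38 for hda-3 and -0.94 for hda-2, where hda-1 was lowest and its paralogs highest. Without that library the hda-2 to hda-1 difference was 0.32 and that of hda-3 to hda-1 was 0.081.

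Of the 3 class II genes, hda-6 rose and the other two were not called. hda-6 (WBGene00018319; IV, 5356543 to 5364306, minus strand) is related to mammalian HDAC6, which deacetylates tubulin. Its values were 5084, 3710, 3509 and 3549 at day 5, against 1320, 1098, 696 and 796 at day 1. The ages were clearly apart, and the day 5 library of batch 1 stood above the other day 5 libraries. The log2 difference of 2.05 (SE 0.24, limma adjusted p = 7.7e-05) was the largest estimate among the 10 genes. Its neighbour Y4C6B.1, annotated 3 bases away on the other strand, was at 1829 ± 335 at day 5 and 353 ± 57.1 at day 1 (log2 difference 2.37, limma adjusted p = 1.46e-05). The counting is not stated to use strand, so reads near their shared border cannot be assigned with certainty.

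hda-4 (WBGene00001837; X, 16729559 to 16744767, plus strand) is the class IIa enzyme, expressed in neurons and muscle, where it works with the transcription factor MEF-2. It stood at 868, 557, 672 and 622 at day 5, against 826, 1009, 176 and 473 at day 1. The day 5 libraries lay inside the day 1 range, and day 1 libraries of batches 1 and 2 were high while that of batch 3 was low. The log2 difference was 0.38 (SE 0.48, limma adjusted p = 0.53). Within batches 1 to 4 it was 0.070, -0.86, 1.93 and 0.40. Leaving out 1P0 batch 3 gave -0.13 (limma adjusted p = 0.719), leaving out 1P0 batches 1 and 2 gave 1.21 (limma adjusted p = 0.0172), and leaving out 1P0 batches 3 and 4 gave -0.44 (limma adjusted p = 0.11). No direction can therefore be given for hda-4.

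hda-5 (WBGene00009663; II, 11799037 to 11802409, plus strand), another class II gene, was at 365, 373, 351 and 330 at day 5, against 176, 252, 283 and 304 at day 1. Day 5 libraries were all above the day 1 libraries, by a small margin, and the gene was not called, at 0.51 on the log2 scale (SE 0.22, limma adjusted p = 0.0782). It was called, at 0.75 (limma adjusted p = 0.0198), when 1P0 batches 3 and 4 were left out. At day 5 hda-5 had the lowest spread of the 10 genes, with a coefficient of variation of 5.31%, against 22.1% at day 1.

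**Figure D2:**
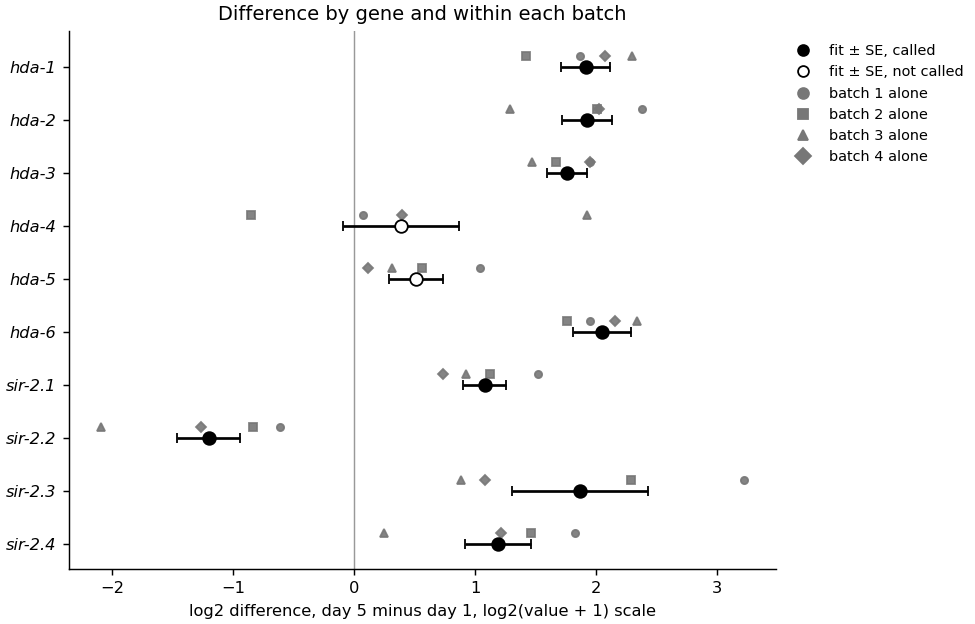
The log2 difference of each gene, day 5 minus day 1, with its SE (black; open where the gene was not called) and the difference within each batch (grey, symbols by batch). Within-batch values share a sign in every gene but hda-4, and sir-2.2 is the gene with negative values in all 4 batches.

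Among the sirtuins, 3 genes rose and 1 fell. sir-2.1 (WBGene00004800; IV, 10363318 to 10366229, minus strand) is the ortholog of mammalian SIRT1 and the sirtuin most studied in worm ageing. Its values were 2405, 1898, 1819 and 1482 at day 5, against 838, 869, 957 and 890 at day 1. The day 1 libraries were close together, with a coefficient of variation of 5.66%, against 20.1% at day 5, and sir-2.1 was the only 1 of the 10 genes with more spread at day 5. The log2 difference was 1.08 (SE 0.18, limma adjusted p = 0.000707). sir-2.1 shares 22 exonic bases with ugt-59 on the other strand.

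The log2 ratio of sir-2.1 to hda-1 was lower in all day 5 libraries, at -1.47 ± 0.32, than in all day 1 libraries, at -0.63 ± 0.41. The difference of -0.84 had the smallest exact p the design allows (exact p = 0.0286) and missed 0.05 after adjustment over the 4 ratios (adjusted p = 0.0571). With the batches as pairs the smallest possible p is 0.125, which this ratio also gave in an exact sign-flip test.

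sir-2.4 (WBGene00004803; I, 5990741 to 5992665, plus strand) is related to mammalian SIRT6 and SIRT7 and has been tied to the stress response through the transcription factor DAF-16. It stood at 563, 493, 420 and 474 at day 5, against 158, 178, 354 and 204 at day 1. The ages did not overlap, although the day 1 library of batch 3 came near the day 5 range. The log2 difference was 1.19 (SE 0.27, limma adjusted p = 0.00431), and within batch 3 alone it was 0.24. Leaving out 1P0 batches 1 and 2 gave 0.85 (limma adjusted p = 0.0256), and leaving out 1P0 batches 3 and 4 gave 1.52 (limma adjusted p = 0.00035). sir-2.4 shares 5 exonic bases with unc-94 on the other strand.

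The genes sir-2.2 and sir-2.3 encode mitochondrial sirtuins related to mammalian SIRT4 and are neighbours on chromosome X, on the same strand and 422 bases apart. They went in opposite directions. sir-2.2 (WBGene00004801; X, 13328067 to 13331263) was at 300.4, 246, 203 and 261 at day 5, against 460.4, 439, 869 and 628 at day 1. Every day 5 library was lower than every day 1 library, and the day 1 libraries of batches 3 and 4 were the highest. The log2 difference was -1.20 (SE 0.26, limma adjusted p = 0.00313), and it was -1.56 when 1P0 batches 1 and 2 were left out and -0.84 when 1P0 batches 3 and 4 were (limma adjusted p = 0.000724 and 0.012).

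sir-2.3 (WBGene00004802; X, 13331686 to 13333846) was the least abundant of the 10 genes. Its values were 34.9, 41.9, 43.4 and 31.9 at day 5, against 2.86, 7.78, 23.1 and 14.5 at day 1. The day 1 values rest on 3, 8, 21 and 15 reads, against 31, 45, 49 and 32 reads at day 5. Day 5 libraries were again all above day 1 libraries, and differed by 1.87 on the log2 scale (SE 0.56, limma adjusted p = 0.0173). This call depended on the day 1 libraries: with 1P0 batches 1 and 2 left out the difference was 1.00 and not called (limma adjusted p = 0.0744), and with 1P0 batches 3 and 4 left out it was 2.73 (limma adjusted p = 0.00154).

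The log2 ratio of sir-2.2 to sir-2.3 was 3.07, 2.52, 2.199 and 2.99 at day 5, against 6.90, 5.65, 5.17 and 5.34 at day 1. The groups were far apart, with a difference of -3.07 (exact p = 0.0286, the smallest the design allows; adjusted p = 0.0571 over the 4 ratios; sign-flip p over batches = 0.125, also the smallest). The next gene on the same strand, F46G10.4, 199 bases beyond sir-2.3, was at 165 ± 34.4 at day 5 and 494 ± 174 at day 1 (log2 difference -1.54, SE 0.28, limma adjusted p = 0.00125). sir-2.3 lies between these neighbours, both of which fell. sir-2.2 and sir-2.3 are related genes and their sequences were not compared here, so how reads that could fit both were assigned is not known.

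**Figure D3:**
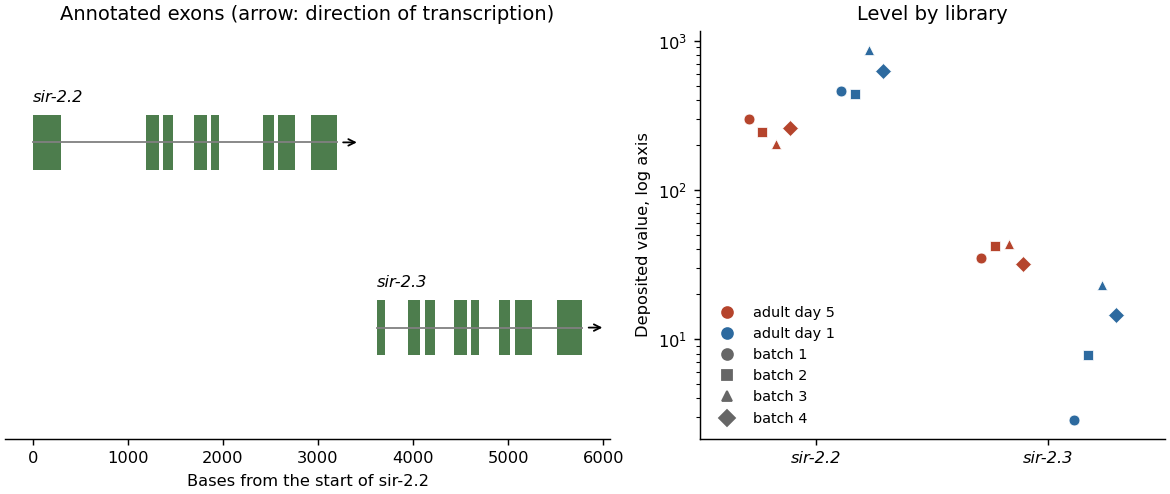
Left, annotated exons of sir-2.2 and sir-2.3 in bases from the start of sir-2.2, with arrows in the direction of transcription; right, the deposited value of both genes in each library (log axis; day 5 left of day 1, symbols by batch). The genes are 422 bases apart, and sir-2.2 is lower and sir-2.3 higher in all day 5 libraries.

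Per kilobase of annotated exon, hda-1 had the highest level at both ages, 2842 ± 370 at day 5 and 764 ± 165 at day 1. At day 5 it was followed by hda-3 (1275 ± 124 per kb), whose range did not reach that of hda-1, and then by hda-6, sir-2.1 and hda-2, each of which overlapped the next. sir-2.4 followed with 472 ± 57.1 per kb, apart from its neighbours on both sides. hda-5, sir-2.2 and hda-4 overlapped below it, and sir-2.3 was last with 34.4 ± 5.01 per kb. At day 1 every gene from hda-1 to hda-5 overlapped the next in order, sir-2.2 was second with 449 ± 149 per kb, and sir-2.3 was last with 10.9 ± 7.95 per kb and apart from hda-5. The per-kb sum of the 10 genes was 7519 to 9576 at day 5 and 2971 to 3219 at day 1. The class I genes made up 60.6 ± 3.07% of this sum at day 5 and 44.04 ± 2.85% at day 1. Within the sirtuins sir-2.2 made up 10.2 to 13.8% at day 5 and 35.1 to 43.8% at day 1.

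**Figure D4:**
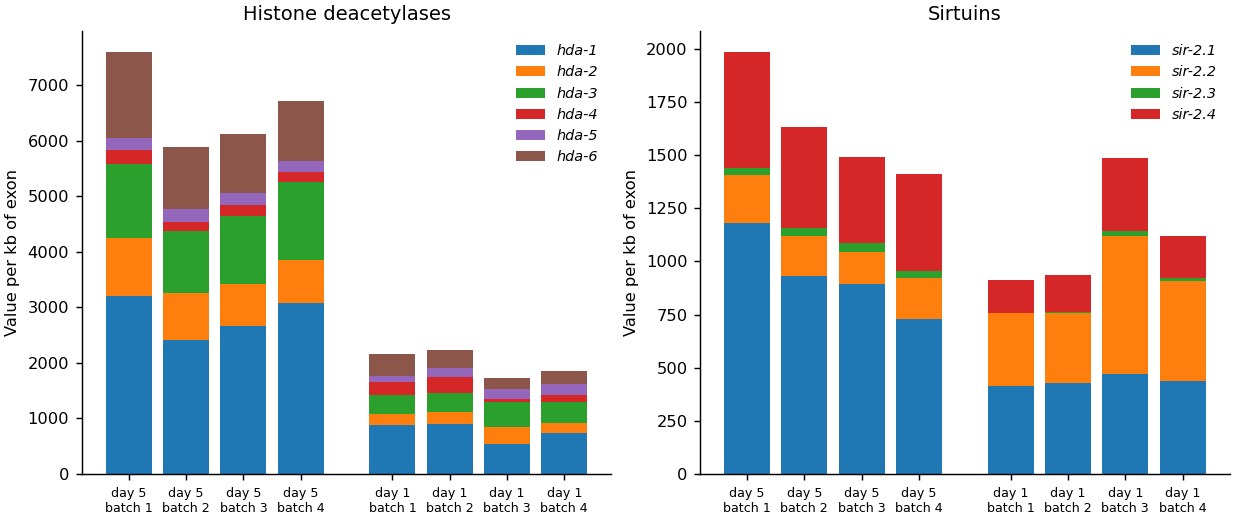
Stacked values per kb of exon of the histone deacetylases (left) and sirtuins (right) in each library, day 5 libraries before day 1 libraries. hda-1 is the largest block of each bar on the left, and sir-2.2 takes a larger block of the sirtuins in the day 1 libraries.

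A pair of related deacetylase genes outside the 10 was also listed. hda-10 was at 1311 ± 292 at day 5 and 346 ± 22.3 at day 1 and rose by 1.89 (SE 0.20, limma adjusted p = 4.3e-05). hda-11, which is related to the class IV enzyme HDAC11, was at 31.1 ± 5.72 at day 5 and 47.1 ± 13.2 at day 1 and was not called (log2 difference -0.56, SE 0.34, limma adjusted p = 0.197).

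Most genes tied to class I enzymes were called higher. Of 22 such genes, which comprise subunits of NuRD, Sin3 and CoREST, related demethylases, a corepressor gene, SUMO pathway genes and the germline factor gene pie-1, 20 were called higher, none lower and 2 were not called, with a median log2 difference of 1.54. Over all genes tested 28.8% were called higher and 26.8% lower. Within the list the largest difference was in pie-1, which encodes a maternal zinc-finger protein of the germ lineage. It was at 2068 ± 562 at day 5 and 106 ± 46.6 at day 1 (log2 difference 4.34, SE 0.34, limma adjusted p = 8.63e-06). The genes not called were chd-3, a NuRD helicase gene (1814 ± 309 at day 5 and 1211 ± 658 at day 1), and gei-8, the NCoR homolog (1111 ± 366 at day 5 and 735 ± 539 at day 1).

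The enzymes that add acetyl groups were mostly higher, against 28.8% of all genes tested called higher and 26.8% called lower. Of 12 histone acetyltransferase genes and associated genes 10 were called higher and 1 lower, with a median of 1.69, and hat-1 had the largest difference, 2.34 (SE 0.20, limma adjusted p = 1.3e-05). The lower gene, cbp-3, a relative of the CBP coactivator gene, was at 577 ± 155 at day 5 and 885 ± 180 at day 1 (log2 difference -0.63, limma adjusted p = 0.0478). This call was lost in 10 of 20 alternatives, with adjusted p up to 0.211, among them leaving out any single library except 5P0 batch 1 or 1P0 batch 2. With 5P0 batch 1 left out, 6 of the 12 were called higher and 2 lower.

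Of 6 genes that work with or against the class II enzymes none was called higher and 4 were called lower, with a median of -0.77. The shares over all genes tested were 28.8% higher and 26.8% lower. mec-17, a tubulin acetyltransferase gene of touch neurons, was at 148 ± 49.96 at day 5 and 1017 ± 469 at day 1 (log2 difference -2.74, SE 0.39, limma adjusted p = 0.000245). mec-12, which encodes the alpha-tubulin acetylated by MEC-17, was at 250.3 ± 78.8 at day 5 and 1316 ± 278 at day 1 (log2 difference -2.43, SE 0.29, limma adjusted p = 9.2e-05). The other tubulin acetyltransferase gene, atat-2, and the kinase gene kin-29, which acts upstream of HDA-4, fell by 0.75 and 0.79, with limma adjusted p of 0.0382 and 0.0213. The atat-2 call was lost in 8 of 20 alternatives, including the replicate block (limma adjusted p = 0.0708) and the removal of any single library except 5P0 batch 3 or 1P0 batch 2. The kin-29 call was lost when 5P0 batch 2, 5P0 batch 4, 1P0 batch 2 or both 1P0 batches 1 and 2 were left out, with adjusted p up to 0.121. mef-2 (-0.54) and the calcium-dependent kinase gene unc-43 (-0.66) were not called, but both were called lower when 1P0 batch 3 was left out (-0.81 and -1.02) and when 1P0 batches 3 and 4 were (-0.90 and -1.22). With all libraries kept, unc-43 was also called lower, at -0.92, with scaling to a total that leaves out the top 1% of genes (limma adjusted p = 0.0443). With 5P0 batch 2 or 5P0 batch 4 left out, 2 of the 6 were called lower.

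Of all genes tested 28.8% were called higher and 26.8% lower. Of 10 genes tied to sir-2.1 through the insulin pathway and DAF-16, 6 were called higher, none lower and 4 were not called. Their median was 1.37. Over the 20 alternatives 5 to 6 of them were called higher. daf-16 itself was called close to the threshold, at 1.04 (limma adjusted p = 0.0468), and its ages overlapped. Among the called genes was hcf-1, whose product binds SIR-2.1 and restrains DAF-16, at 6685 ± 1090 at day 5 and 1547 ± 419 at day 1 (log2 difference 2.14, SE 0.23, limma adjusted p = 5.01e-05). eak-7, a regulator of DAF-16, was at 3236 ± 609 at day 5 and 851 ± 87.9 at day 1 (log2 difference 1.91, SE 0.18, limma adjusted p = 2.7e-05). Both genes of the 14-3-3 proteins that bind SIR-2.1 were among those not called: ftt-2 averaged 6613 ± 519 at day 5 and 9307 ± 1910 at day 1, and par-5 averaged 20893 ± 2932 at day 5 and 20204 ± 2974 at day 1. ftt-2 was called lower, as 1 of the 10, by DESeq2, with scaling to a total that leaves out the top 1% of genes, and with 1P0 batch 3 or 1P0 batches 3 and 4 left out.

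Of 17 tested genes of the metabolism of NAD+, the co-substrate of sirtuins, 6 were called higher, 5 lower and 6 were not called, with a median of -0.26. Over all genes tested 28.8% were called higher and 26.8% lower, with a median of -0.065, so these counts are near the background. All 5 lower genes act in tryptophan breakdown or nicotinamide methylation. They were tdo-2 (-1.43), kmo-1 (-2.01), kynu-1 (-0.82) and haao-1 (-2.03) of the kynurenine pathway, which feeds NAD+ synthesis, and the nicotinamide methyltransferase gene anmt-1 (-2.05, SE 0.36, limma adjusted p = 0.000981). anmt-1 was at 62.3 ± 13.3 at day 5 and 281 ± 143 at day 1. Among the genes of the list that were not called, afmd-1 (-1.09, SE 0.53, limma adjusted p = 0.107) had a negative estimate with a wide SE. umps-1 (-0.22, limma adjusted p = 0.577) had a small negative estimate. qns-1 was called higher (0.70, limma adjusted p = 0.0123). The largest increase was in parp-1, a poly(ADP-ribose) polymerase gene whose product also consumes NAD+, at 4714 ± 890 at day 5 and 722 ± 307 at day 1 (log2 difference 2.80, SE 0.32, limma adjusted p = 6.8e-05). With 1P0 batches 1 and 2 left out, 9 of the 17 were called lower.

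The biotin-dependent carboxylases are known binding partners of SIR-2.2 and SIR-2.3. pcca-1 and mccc-1, the alpha subunits of propionyl-CoA and methylcrotonyl-CoA carboxylase, fell by 0.81 and 0.83 (limma adjusted p of 0.00151 and 0.000849). pcca-1 was at 5342 ± 380 at day 5 and 9381 ± 1009 at day 1, and mccc-1 at 3058 ± 179 at day 5 and 5428 ± 369 at day 1. pyc-1, pyruvate carboxylase, was at 6768 ± 74.9 at day 5 and 7342 ± 2538 at day 1, and pccb-1, the beta subunit partner of PCCA-1, at 7514 ± 1467 at day 5 and 6677 ± 2204 at day 1. Neither was called, at -0.037 and 0.23, and the sign turned for pyc-1 when 1P0 batch 2 or 4 was left out (0.089 and 0.11) and for pccb-1 when 1P0 batch 3 was (-0.059). bpl-1, the gene of the ligase that attaches biotin, rose by 0.59 (limma adjusted p = 0.0323), a call lost in 8 of 20 alternatives with adjusted p up to 0.168. These included both scalings to a fixed total and leaving out 5P0 batch 1, 2 or 3 or 1P0 batch 2 or 4. Over the 5 tested genes, 1 was called higher and 2 lower. The shares over all genes tested were 28.8% and 26.8%, so these counts are near the background.

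**Figure D5:**
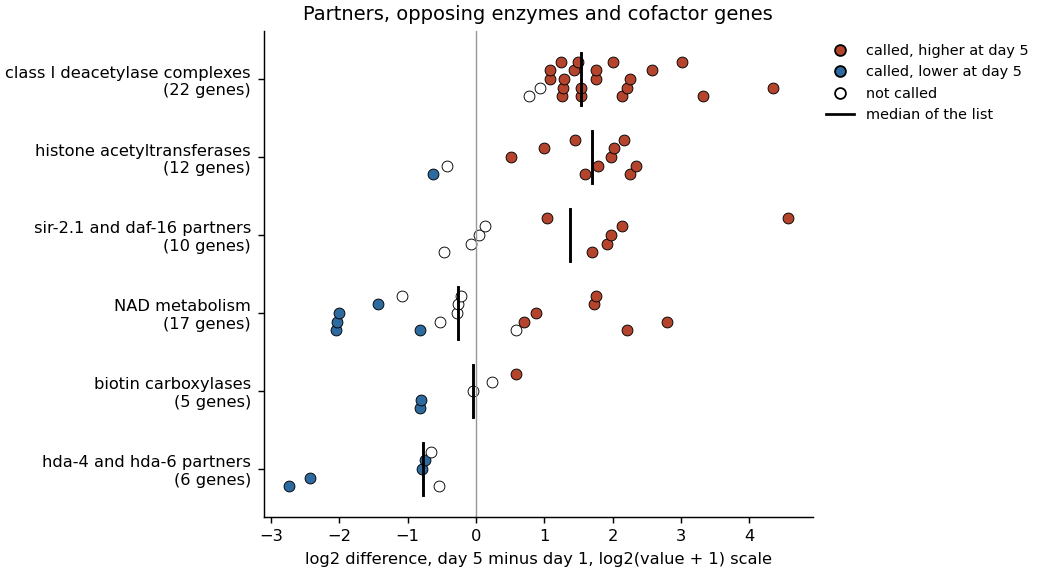
The log2 difference, day 5 minus day 1, of each tested gene in 6 lists (filled where called, open where not), with the median of each list as a black line. Medians lie at 1.54 for class I complexes, 1.69 for acetyltransferases, 1.37 for sir-2.1 partners, -0.26 for NAD metabolism, -0.037 for carboxylases and -0.77 for partners of hda-4 and hda-6.

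Markers of several tissues moved with age in the same libraries, where 28.8% of all genes tested were called higher and 26.8% lower. Of 12 germline markers 11 were called higher, with a median log2 difference of 1.54. Their summed level was 84503 to 125036 at day 5 and 20424 to 37802 at day 1. All 10 oocyte markers were higher, with sums of 152056 to 242736 at day 5 and 1838 to 6338 at day 1, and none was at 0 in a library. All 6 yolk genes were higher, with sums of 589523 to 1297260 at day 5 and 111 to 4415 at day 1, and vit-3 and vit-5 were at 0 in day 1 libraries. All 6 listed early embryo markers were higher, with sums of 1322 to 2381 at day 5 and 2.86 to 10.7 at day 1, and each was at 0 in at least 1 day 1 library. Larval moult markers were lower in 11 of 12 genes, with sums of 4140 to 13554 at day 5 and 52356 to 116372 at day 1. Muscle markers were lower in 10 of 10, with sums of 43786 to 89984 at day 5 and 155393 to 334012 at day 1. Intestinal markers were lower in 5 of 9, with sums of 70271 to 89614 at day 5 and 146159 to 205651 at day 1. Neuronal markers were lower in 10 of 12 (1 was higher), with neuronal sums of 11194 to 13139 at day 5 and 13991 to 19545 at day 1. Of 11 sperm markers 1 was called lower and none higher, with sums of 368 to 3472 at day 5 and 322 to 5153 at day 1. The part of these shifts in the differences above was not tested. As whole worms were used, fewer cells of a type and less RNA per cell cannot be told apart, nor can adult age and developmental stage.

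Day 1 libraries also differed among themselves along some of the same markers. Oocyte marker sums were 6338, 4551, 1838 and 1995 in 1P0 batches 1 to 4, and sperm marker sums were 5153, 2985, 326 and 322. Germline marker sums were 37731, 37802, 20424 and 21449, and yolk sums were 1804, 4415, 122 and 111. Muscle marker sums were 253743, 334012, 155393 and 247512, and neuronal sums were 15916, 17647, 13991 and 19545. Moult marker sums were 116372, 95603, 52356 and 83916, and intestinal sums were 189422, 205651, 146159 and 175159. Early embryo sums were 2.86, 10.7, 6.60 and 6.78. In the muscle, neuronal, moult, intestinal and early embryo lists batches 1 and 2 did not stand as clearly apart from batches 3 and 4. Among the 10 genes, the mean of day 1 batches 1 and 2 was 2.83 times that of batches 3 and 4 for hda-4, 1.62 times for hda-6 and 1.39 times for hda-1. The mean of day 1 batches 3 and 4 was 3.54 times that of batches 1 and 2 for sir-2.3 and 1.66 times for sir-2.2 and sir-2.4. Variation was larger at day 1 in 9 of the 10 genes, with coefficients of variation of 5.66 to 72.7%, against 5.31 to 20.1% at day 5.

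The genes closest in pattern to hda-1 over the 8 libraries, by Pearson's r of log2(value + 1) and as a description, were Y77E11A.7, F30F8.10 and edg-1, each with r of 0.999. For sir-2.2 they were slcr-46.3, serr-1 and pgrn-1, with r of 0.996, 0.994 and 0.994. All points share the split into 2 ages, and pgrn-1, for example, was at 811 ± 106 at day 5 and 1937 ± 597 at day 1.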

How the data were processed

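The submitters' processing notes name HISAT2, HTSeq and the build WBcel235, with no versions; annotation and treatment of multiply mapping reads are not stated in them. The authors called the deposited table FPKM, yet it holds a signal without length correction: counts of reads divided by the size factor of the library. Dividing each column by a fitted step gave whole numbers (within 0.001) for 100% of values. The step of 1 day 5 column, 0.996, lies so near 1 that rounding could look alike, so its recovered reads are less certain; recovered reads were used for the edgeR and DESeq2 alternatives, the library totals, the comparison of libraries with sampling noise and the read numbers given for sir-2.3. Recovered reads numbered 20569012 to 22305681 at day 5 and 19345868 to 20763236 at day 1. Because the table holds no FPKM, the tests planned for normalized values were applied to this signal.

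The main test used limma 3.58.1 (R 4.3.3), with age as the only term, a variance trend and Benjamini-Hochberg adjustment, on log2 of the signal plus 1, over genes averaging 1 or more. Alternatives were edgeR 4.0.16 and DESeq2 1.42.0 on recovered reads, a replicate block, other pseudocounts, filters and scalings, and libraries left out. Permutation tests ran in Python 3.11.15, and figures in matplotlib 3.10.9; tests were checked on simulated data. Positions come from Ensembl release 115 of WBcel235.

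Each batch label is shared by 1 library of each age, which pairs the libraries; deviations from the group means correlated at -0.22, 0.24, -0.095 and -0.017 in batches 1 to 4. No libraries of an age matched within sampling noise. The text names all 10 genes, the called gene of largest difference in each direction of each partner list, every carboxylase gene, every partner of hda-4 and hda-6, and 3 genes of like pattern each for hda-1 and sir-2.2. One gene that this rule names is not reported here. Other genes, neighbours included, were named after their values were seen. The genes and lists were chosen with earlier results of these data known. nmrk-2, mccc-2, opt-2, pes-10 and med-1 were not analysed here.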

Additional observations from a re-analysis of the deposited data

Results flagged for a closer look

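Each gene's 4 libraries of an age were examined for a library far from the rest, 20 groups in all, and 2 groups held one by Dixon's test. Chance gives about 1 in 20 groups. hda-6 was at 5084 in 5P0 batch 1, with a gap to the nearest library of 0.872 of the range, and at 3509 to 3710 in the other day 5 libraries. hda-2 was at 518 in 1P0 batch 3, with a gap of 0.847 of the range, and at 320 to 350 in the other day 1 libraries.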

How the results depend on the processing

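Of the 10 genes, 8 were called in every alternative but 1, with the same split of 7 higher and 1 lower; with 1P0 batches 3 and 4 left out 9 were called (8 higher, 1 lower), and with 1P0 batches 1 and 2 left out sir-2.3 was lost and hda-4 gained. Of 200 values (10 genes under 20 alternatives), 195 kept direction and side of the threshold; hda-4 turned to -0.13 without 1P0 batch 3 and to -0.44 without 1P0 batches 3 and 4. Leaving out 1 library at a time gave 8254 to 9445 called genes in all and 8 of the 10, log2 differences of 0.34 to 0.60 for hda-5 and -0.13 to 0.71 for hda-4, and ratio differences of -3.27 to -2.69 (sir-2.2 to sir-2.3), -0.27 to 0.081 (hda-3 to hda-1), -0.12 to 0.32 (hda-2 to hda-1) and -0.94 to -0.64 (sir-2.1 to hda-1); the cause was not tested. With the replicate block 8810 genes were called in all, against 9307 without it, and the call of none of the 10 genes changed. edgeR called 9303 genes and DESeq2 9705. Scaling to a total that leaves out the top 1% of genes moved the median of all genes to -0.29 and the share of calls that were higher to 44.2%, against 51.8%; it moved sir-2.1 to 0.83 and sir-2.2 to -1.45. Among partner genes pccb-1 turned to -0.025 with that scaling and to -0.090 without 1P0 batches 3 and 4, and ranged over -0.059 to 0.37 with 1 library left out. pyc-1 turned to 0.15 without 1P0 batches 1 and 2, and ranged over -0.31 to 0.11 with 1 library left out. The cause of these changes was not tested. Depth limits sir-2.3, at 3 to 21 reads in day 1 libraries.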
